A study of Sus scrofa with 12 samples.

Results

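DPP4, also known as CD26, is 1 of 12627 named genes on the arrays of the series. It was described on the 5 probes that the platform annotation assigns to it, of 89014 probes in all. The first array design held 4 of them among 43794 probes (numbered 6060, 20771, 27209 and 39077 in the deposited tables), and the second design held 1 among 45220 (number 20135). All probes with the symbol DPP4 were taken. The gene itself was chosen by its stage ratio on the second design, the largest there among named genes, so that ratio is given as a description, with no test. What the choice did not use was tested: the difference between its probes, the part of each ratio that follows the dyes, and its ratio on the first design, whose arrays differ but may carry the same RNA.

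Dipeptidyl peptidase 4 is a serine peptidase anchored in the plasma membrane with its catalytic part outside the cell, and it is also shed in soluble form. It removes a dipeptide from the start of peptides that carry proline or alanine at the second position, which shortens incretin hormones, neuropeptides and several chemokines and changes their activity. In mammals it is known from the brush border of kidney and intestine, from activated T cells and from the endometrium. It also binds adenosine deaminase and matrix proteins such as fibronectin.

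RNA of pig (Sus scrofa) early blastocysts, collected 5 days after in vivo insemination, was hybridised against RNA of hatched blastocysts, collected at 5.5 days. The source labels of the first design name both stages as in vivo, and those of the second design do not. Each design had 6 arrays, 3 with the hatched stage in Cy5 and 3 with the early stage in Cy5, on slides 4 and 22 for the first design and on slides 8 and 20 for the second. Every array thus carried both stages, with no treatment and no other genotype named in the labels. An array is called hatched-Cy5 or early-Cy5 after its red channel, with a number from 1 to 3 that follows the accessions and links no arrays. The labels' protocols state that total RNA was amplified in 2 rounds with T7 RNA polymerase and labelled chemically. The labels do not say how many embryos were pooled, which arrays share an extract, or whether embryos came from separate litters, so errors and p-values measure the spread between arrays, which may be technical. In whole embryos, fewer cells of a type and less RNA per cell cannot be told apart.

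Each probe has 1 deposited log ratio of the channels per array, taken as log2. The files used here give no channel intensities, so no level of DPP4 in either stage is given, and it cannot be said whether a probe near 0 was above background. The stage in the numerator was not settled. A ratio is therefore said to be positive or negative as deposited, and which stage was higher is not stated. The SD of all ratios on an array ran from 0.301 to 0.462 on the first design and from 0.364 to 0.512 on the second. Arrays early-Cy5 1 and hatched-Cy5 2 had the smallest spread on both designs.

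On the second design the single DPP4 probe, 20135, lay far to the positive side on every array. With hatched in Cy5 its log2 ratio was 3.62, 3.10 and 2.86 on arrays 1, 2 and 3. With early in Cy5 it was 2.93, 3.20 and 2.85. The dye orientations overlapped, and the highest value was that of array hatched-Cy5 1. The mean was 3.09 ± 0.11 (SE of the fit, n = 6 arrays; SD 0.29), an 8.54-fold ratio if the scale is log2. It ranked 3 of 45220 probes and 1 of 4531 named genes by the ratio toward the positive side. Toward either side the stage effect passed for 6.12% of the probes of that design, from which nothing is read here, since these values chose the gene.

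On the first design 1 of the 4 DPP4 probes was likewise far to the positive side. Probe 27209 read 3.11, 2.66 and 2.48 with hatched in Cy5, and 2.38, 2.85 and 2.79 with early in Cy5. The orientations overlapped again, and all 6 arrays were above 2. Its stage ratio was 2.71 ± 0.10 (SE, n = 6 arrays; SD 0.27; limma adjusted p = 0.000156 over all probes), a 6.54-fold ratio if the scale is log2. The stage effect passed the threshold for 4.64% of all probes of that design. These p-values take the 6 arrays as independent. On averages of the 3 pairs of arrays whose residuals correlate (r from 0.358 to 0.725), the call of probe 27209 ended (limma adjusted p = 0.0682). A fit that took those pairs as random blocks kept it (limma adjusted p = 0.000109). Probe 27209 ranked 6 of all 43794 probes and 3 of the 18121 named ones toward the positive side.

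The other 3 probes of the first design lay near 0. Probe 6060 read 0.25, 0.11 and -0.08 with hatched in Cy5, and 0.14, 0.22 and -0.04 with early in Cy5, a stage ratio of 0.10 ± 0.07 (limma adjusted p = 0.596). Probe 20771 read -0.03, -0.07 and 0.0036 with hatched in Cy5, and 0.06, 0.17 and -0.05 with early in Cy5, a stage ratio of 0.01 ± 0.06 (limma adjusted p = 0.956). The value of either probe farthest from 0 on any array was 0.25. Probe 39077 read 0.08, 0.59 and 0.47 with hatched in Cy5, and -0.41, -0.67 and -0.63 with early in Cy5. Its orientations did not overlap, and its stage ratio was -0.10 ± 0.08 (limma adjusted p = 0.691). So 1 of the 4 probes passed the stage test and 3 did not.

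**Figure D1:**
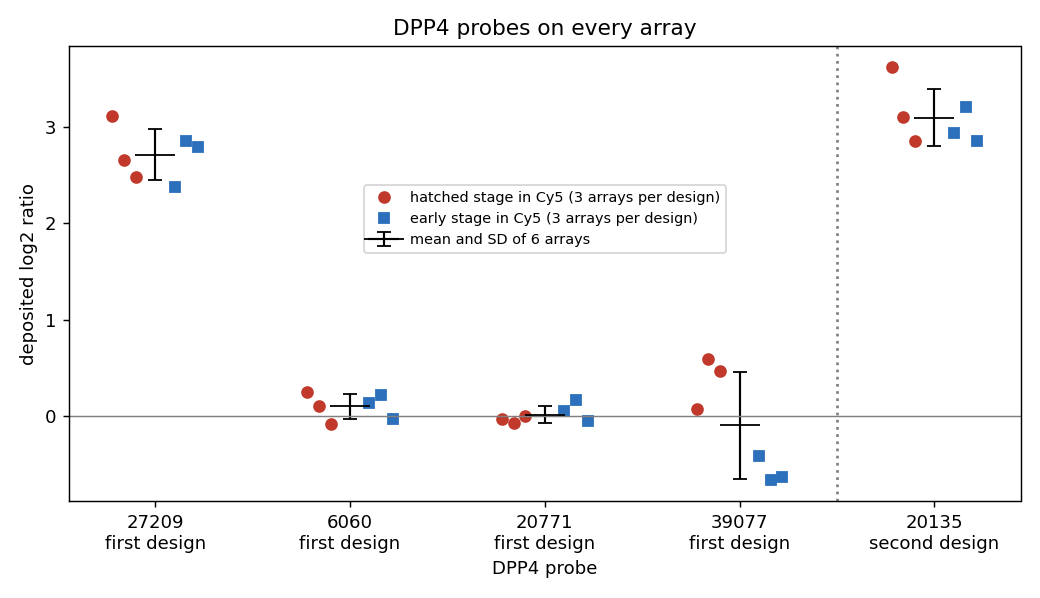
Deposited log2 ratio of each DPP4 probe (columns) on each of the 6 arrays of its design. Points are arrays, marked by the stage in Cy5, and the bars are the mean and SD. Probes 27209 and 20135 sit between 2.38 and 3.62 on every array, and probes 6060 and 20771 sit around 0. Probe 39077 lies above 0 with hatched in Cy5 and below 0 with early in Cy5.

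The difference between probe 27209 and its neighbours on the same arrays was tested with an exact sign flip test, 2-sided, over 6 arrays and 6 pairs of probes. Probe 27209 exceeded probe 6060 by 2.61 ± 0.22 (SD, n = 6), with a range over the arrays from 2.24 to 2.86. It exceeded probe 20771 by 2.70 ± 0.29 (range 2.32 to 3.14) and probe 39077 by 2.81 ± 0.65 (range 2.01 to 3.52). In all 3 comparisons it was higher on 6 of 6 arrays, with an exact p of 0.03125, the smallest that 6 arrays allow. After Benjamini-Hochberg adjustment over the 6 pairs, of which 3 reached that p, it was 0.0625 and did not pass 0.05, while each difference was several times its SD.

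Among the remaining probes no difference was past the spread. Probe 6060 minus probe 20771 was 0.09 (exact p = 0.1875, adjusted 0.281; higher on 5 of 6 arrays). Probe 6060 minus probe 39077 was 0.20 (exact p = 0.375, adjusted 0.45), and probe 20771 minus probe 39077 was 0.11 (exact p = 0.656, adjusted 0.656).

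Averaging the 4 probes gave a gene value on the first design that describes none of them. The mean was 0.68 ± 0.05 (SE, n = 6 arrays; SD 0.14; limma adjusted p = 0.00142 over all genes), and the arrays ran from 0.52 to 0.85. Averages of the pairs ended that call too (limma adjusted p = 0.0752), and random blocks kept it (0.00259). The stage effect passed for 4.75% of the genes on that design and for 11.0% on the second. The median of the 4 probes was 0.17 (limma adjusted p = 0.202). Read as a mean, DPP4 ranked 187 of 11913 genes, against rank 1 of 4531 on the second design, where it has 1 probe.

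**Figure D2:**
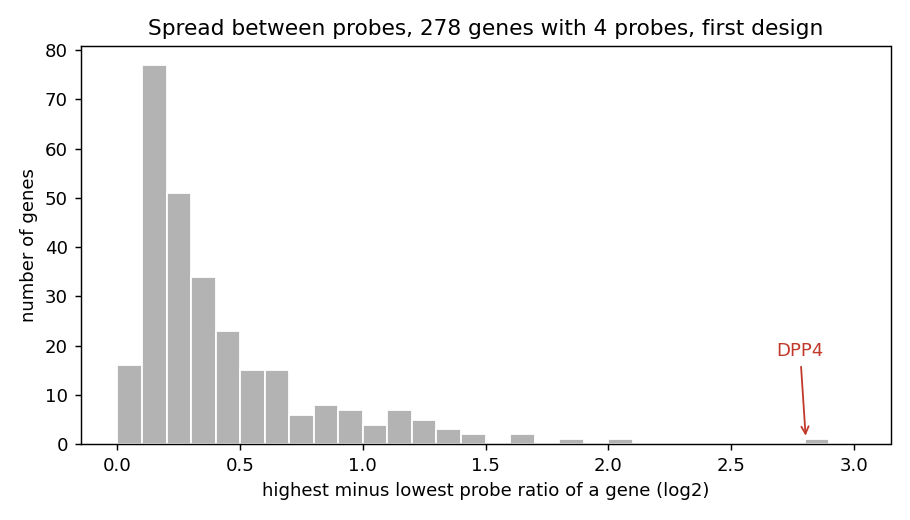
Range between the highest and the lowest probe of each of the 278 genes with 4 probes on the first design, in log2 units. Bars count genes and the arrow marks DPP4. DPP4, at 2.81, has the widest range, and the median is 0.285.

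A range as wide as that of DPP4 needs a probe far from 0. On the first design 13 of 43794 probes had a ratio of at least 2, so the comparison with other genes is a description. Of 278 genes with 4 probes on the first design, 26 had a range of at least 1 between their highest and lowest stage ratio, and the median range was 0.285. The range of DPP4, 2.81, was the widest of the 278. RCBTB2 followed at 2.08, SH3KBP1 at 1.89 and TSR2 at 1.67, and these genes were named for their range after it was seen. Of the 278 genes, 62 had at least 1 called probe, and in 48 of them it was exactly 1. The stage effect passed for 4.64% of all probes of that design, so nothing is read from these counts about the genes.

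The designs disagreed for the same annotated transcript. Probe 6060 of the first design and probe 20135 of the second carry the same RefSeq transcript in the platform annotation, yet read 0.10 and 3.09, a gap of 2.99. The probe of the first design that read like 20135 was 27209, whose mean was 2.71. Probe 27209 has the symbol DPP4 in that annotation but no transcript, and the same holds for probes 20771 and 39077. The designs were fitted separately and share no probe known to be identical, so no test was made between them. The part of the transcript that each probe targets is not given in the tables used here.

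**Figure D3:**
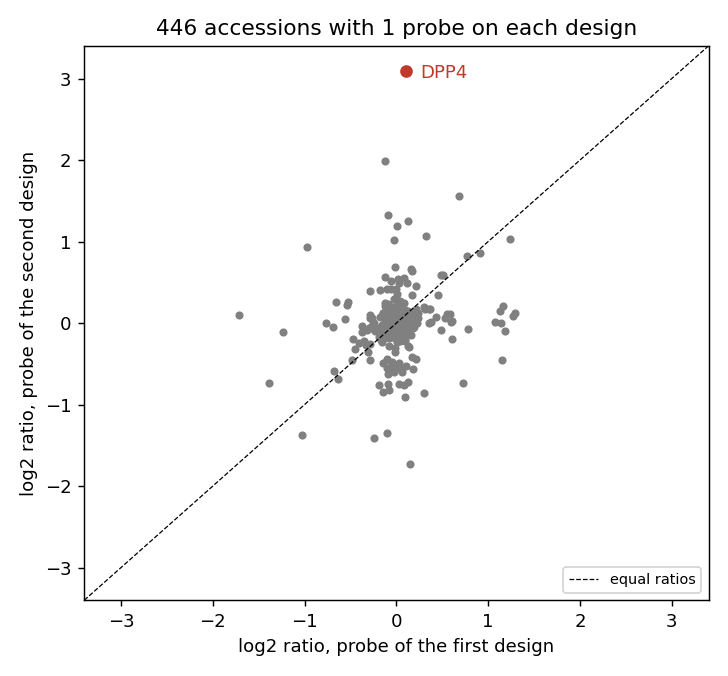
Stage ratio in log2 units on the first design (horizontal) against the second (vertical) for the 446 transcripts with 1 probe on each design under the same accession. Each point is a transcript, and DPP4 is marked at 0.10 and 3.09, away from the diagonal.

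Over the 446 transcripts with 1 probe on each design, the median size of the difference was 0.116, and 382 differed by no more than 0.5. The gap of DPP4 is given as a description, since it holds the ratio by which the gene was chosen. SFN, which encodes the epithelial adaptor 14-3-3 sigma, had the next gap in size, with -0.12 on the first design and 1.99 on the second. Of 36 transcripts called on the second design, 5 were also called on the first design, where the stage effect passed for 4.64% of all probes.

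The part of the ratio that follows the dyes separated probe 39077 from the rest. Its mean was 0.38 with hatched in Cy5 (SD 0.27, n = 3) and -0.57 with early in Cy5 (SD 0.14, n = 3), a difference of 0.950. The dye coefficient, which is that difference divided by 2, was 0.48 ± 0.08 (limma adjusted p = 0.0362 over all probes). The dye effect passed for 3.03% of the probes on the first design. Leaving out 1 array in turn kept the coefficient between 0.42 and 0.55, but it passed in 1 of 6 such fits (adjusted p 0.0461 to 0.141). No other DPP4 probe had a dye effect past the threshold. The coefficient was 0.04 for probe 27209 (adjusted p = 0.852), -0.01 for probe 6060 (0.964) and -0.05 for probe 20771 (0.681). On the second design it was 0.10 ± 0.11 for probe 20135 (adjusted p = 0.719), and 0.00663% of all probes passed there.

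**Figure D4:**
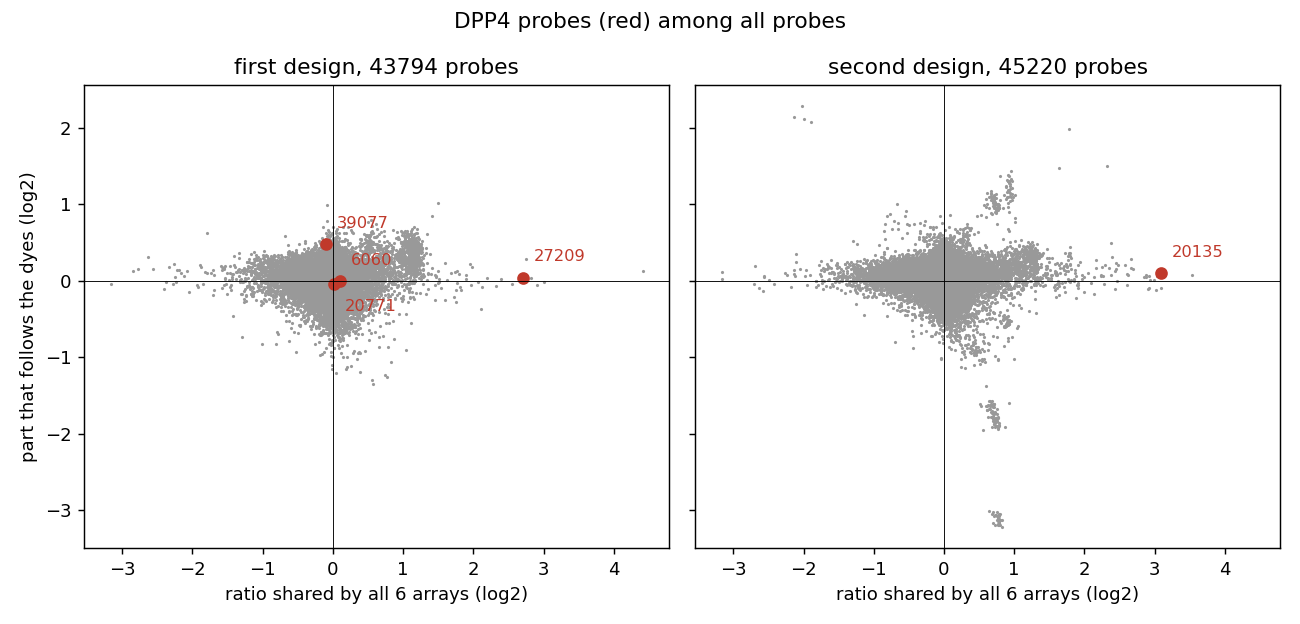
Stage ratio (horizontal) against dye coefficient (vertical), both in log2 units, for all probes of each design, with the DPP4 probes marked. Probes 27209 and 20135 lie far to the right with dye coefficients of 0.04 and 0.10, and probe 39077 lies near 0 on the stage axis with a dye coefficient of 0.48.

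If the deposited ratios had not been turned to 1 direction, stage and dye would change places. Turning the sign on the early in Cy5 arrays gave stage ratios of 0.04 for probe 27209 and 0.10 for probe 20135, and 0.48 for probe 39077. The ratios as deposited were used because the arrays with early in Cy5 are written to at most 6 significant digits and the others to up to 10. Also, over 3817 shared genes the part common to all arrays correlated between the designs with r = 0.489 and the part that follows the dyes with r = 0.179, across genes, which are not independent replicates.

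Both high DPP4 probes varied somewhat more between arrays than the median probe. Probe 27209 had an SD of 0.27 and probe 20135 an SD of 0.29, against a median over all probes of 0.231 and 0.251, and 38.7% and 36.2% of the probes had a larger one. The lowest array value of probe 20135, 2.85, was above the lowest value of every other probe of its design. For probe 27209 that value was 2.38, and 2 of the 43794 probes had a higher one. On single arrays, by contrast, between 4 and 124 probes read above 27209, and between 4 and 114 above 20135.

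Both high probes averaged above 2 within each slide and on the arrays of small spread. Probe 27209 averaged 2.75 within slide 4 (2 arrays) and 2.69 within slide 22 (4 arrays). Probe 20135 averaged 3.28 within slide 8 and 3.001 within slide 20. On the 2 arrays of smallest spread, probe 27209 averaged 2.52, against 2.81 on the other 4, a quotient of 0.898. The median quotient of the 13 probes with a ratio of at least 2 was 0.692, and 4 of them had a higher quotient. For probe 20135 the averages were 3.02 and 3.13, a quotient of 0.962, where the median of 43 such probes was 0.716 and 12 were higher.

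Few probes lay near either high DPP4 probe by root mean square difference, which counts the size of the ratio. Only 13 probes of the first design and 43 of the second had a ratio of at least 2. A small number of neighbours therefore follows from the ratio itself. Within a root mean square difference of 0.25 over the 6 arrays, probe 27209 had 1 other probe, which is unnamed (number 28315, at 0.219), and the next was a CYP51 probe at 0.385. Probe 20135 had 2, both unnamed, the nearer at 0.146 (number 31343). Among named genes of the second design the nearest were FN1, which encodes fibronectin, at 0.789, the uterine plasmin and trypsin inhibitor UPTI at 0.896 and the bile acid transporter SLC10A1 at 0.998. GAPDH, an enzyme of glycolysis, and SFN both stood at 1.15. By correlation over the 6 arrays, which ignores size, the closest called gene was FCER1G, an adaptor chain of immune receptors (r = 0.965). Its own ratio was 0.75, and the values compared come from the same 6 arrays.

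On the first design the 4-probe mean of DPP4 lay nearest to RASA2, a Ras GTPase-activating protein (root mean square difference 0.139), the methyltransferase gene SETD3 (0.144) and the laminin chain gene LAMB1 (0.168). These rest on the mean that no single probe showed. Against probe 27209 alone, a choice made after its values were seen, the nearest named genes were the apolipoprotein gene APOA1 (0.575), the asparagine synthetase gene ASNS (0.681) and the glutathione peroxidase gene GPX1 (0.829).

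In the order of stage ratios on the second design, the genes after DPP4 were read as a description, and no difference from DPP4 was tested. UPTI came next at 2.97 ± 0.40. ISG12(A), which interferon induces, stood at 2.88 ± 0.69, and TSPO, the translocator protein of mitochondria, at 2.66 ± 0.65 (SE, n = 6 arrays each). UPTI ran from 1.83 to 4.46, ISG12(A) from 0.23 to 5.39 and TSPO from 0.44 to 5.34 over the arrays. All 3 ranges cover the range of DPP4, 2.85 to 3.62. Around rank 187 on the first design, ANXA5, RNASEH2C and CHAF1A stood above, each at 0.69, and XRCC1, CAPG and UNC13D below, each at 0.68.

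The list of relatives also holds ACPP, a phosphatase gene. Relatives of DPP4 were read against the share of all genes called on the positive side, 2.38% on the first design and 5.27% on the second. Of 11 genes in the list of its family and related prolyl peptidases, 9 were measured on the first design, 0 were called on the positive side and 1 on the negative side (2 at an unadjusted p under 0.05), and their median ratio was 0.04, where that of all genes was 0.0027. FAP, fibroblast activation protein, the closest relative and a membrane peptidase itself, read 0.04 ± 0.06 over 2 probes. DPP8, a cytosolic dipeptidyl peptidase, read 0.06 ± 0.05 on the first design and 0.05 ± 0.06 on the second. The called gene was PREP, the cytosolic prolyl oligopeptidase, at -0.27 ± 0.05 (limma adjusted p = 0.0404), with 1 of its 5 probes called and a range over them from -0.92 to 0.05. That call ended on leaving out any 1 of the arrays (adjusted p 0.0645 to 0.172), and PREP read -0.0011 on the second design. There 3 members were measured and 0 called by limma, with 0 at an unadjusted p under 0.05.

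**Figure D5:**
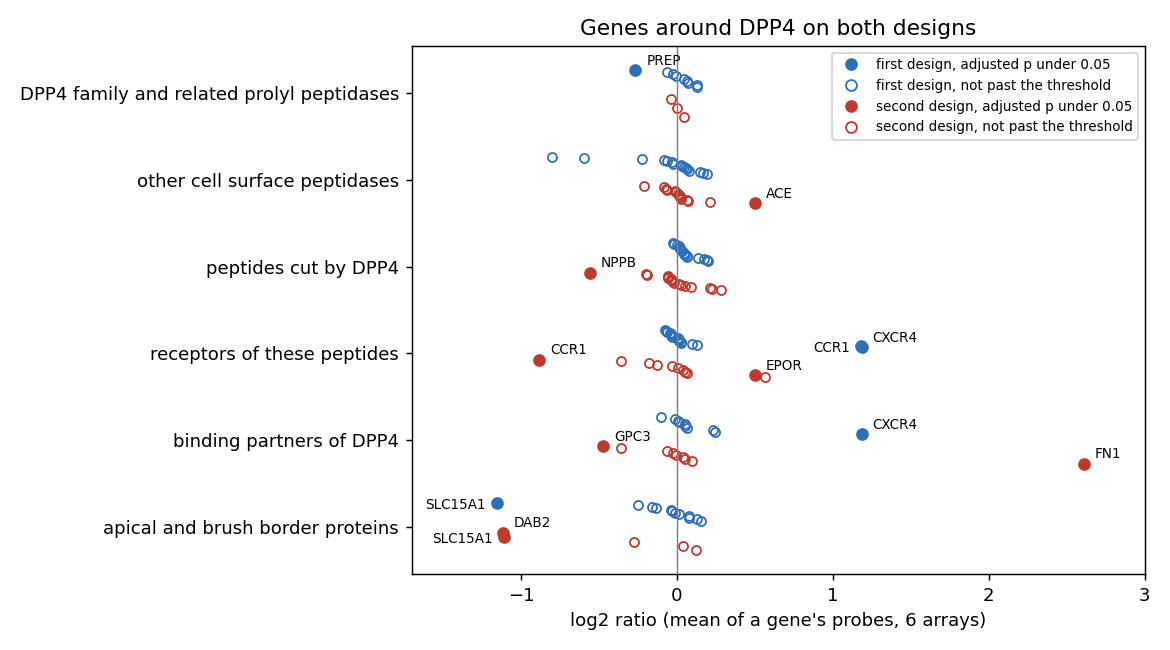
Stage ratio in log2 units (horizontal, mean of a gene's probes over 6 arrays) of the measured genes of the 6 lists shown as rows, with first-design genes in blue and second-design genes in red. Filled points passed the threshold (limma adjusted p under 0.05) and are named, and open points did not. Most genes lie near 0, and of the genes plotted FN1 of the second design, at 2.61, is farthest to the right.

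The list of other cell surface peptidases also holds NT5E and ALPL, which are not peptidases. Its calls were read beside the share of all genes called toward either side, 4.75% and 11.0%. Of 16 measured on the first design, 0 were called by limma (2 at an unadjusted p under 0.05), with a median of 0.03 and a range from -0.80 to 0.19. Of 15 on the second, 1 was called: ACE, which makes angiotensin II, at 0.50 ± 0.08 (limma adjusted p = 0.00745). Its 2 probes read 0.03 and 0.97, and the call ended without the dye term (adjusted p = 0.121). On the first design ACE read 0.15. The list of cytosolic aminopeptidases also holds ERAP1 and ERAP2, which sit in the endoplasmic reticulum. It gave 0 calls among 10 on the first design (1 at an unadjusted p under 0.05). On the second it gave 0 of 1 (0 unadjusted).

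Peptides that DPP4 shortens were read beside the same shares, 4.75% and 11.0%. Of these, 18 were measured on the first design with 0 called by limma (3 at an unadjusted p under 0.05), and 17 on the second with 1 called. That gene was NPPB, which encodes the B-type natriuretic peptide, at -0.56 ± 0.10 (limma adjusted p = 0.0148). Leaving out 1 array raised its adjusted p to as much as 0.0602, and on the first design it read 0.03. The medians of the list were 0.04 and -0.03.

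Receptors of these peptides gave 2 calls among 17 on the first design and 2 among 11 on the second, beside 4.75% and 11.0% of all genes. On the first design both were chemokine receptors, CXCR4, the receptor of CXCL12, at 1.18 ± 0.23 (limma adjusted p = 0.033), and CCR1 at 1.18 ± 0.21 (0.0235). Each rests on 1 probe and on arrays that ranged from 0.05 to 2.08 and from 0.07 to 1.90. Each call ended in 4 of the 6 fits without 1 array. The CXCR4 probe had 226 other probes within a root mean square difference of 0.25, of which 84 were named. The CCR1 probe had 177, of which 64 were named. Both read below 0 on the second design, CXCR4 at -0.36 ± 0.12 (limma adjusted p = 0.105) and CCR1 at -0.88 ± 0.06, opposite to the first. The remaining call there was EPOR, the erythropoietin receptor, at 0.50 ± 0.08.

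Of the proteins that bind DPP4, 10 were measured on the first design, with 1 called, and 9 on the second, with 2 called, beside 4.75% and 11.0% of all genes. The call on the first was CXCR4, which stands in both lists. FN1 read 2.61 ± 0.26 on the second design, from 1.65 to 3.33 over the arrays, and its 2 probes both stood at 2.61. On the first design its probes disagreed, as those of DPP4 did: 5 probes ran from -0.20 to 1.36, 1 of them called, and the mean was 0.25 ± 0.06 (limma adjusted p = 0.068). The other called partner was the cell surface proteoglycan gene GPC3, at -0.47 ± 0.08 on the second design, with probes at -0.84 and -0.11, and 0.05 on the first. The factors reported to act on the DPP4 promoter gave 0 limma calls among 8 genes on the first design and 0 among 9 on the second, with 1 at an unadjusted p under 0.05 on each.

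Brush border proteins, with which DPP4 is found in kidney and intestine, gave 3 calls, beside 2.38% and 5.72% of all genes called on the negative side. Of 12 measured on the first design 1 was called, and of 5 on the second 2 were called, all negative. SLC15A1, the intestinal peptide transporter that takes up dipeptides, read -1.15 ± 0.07 on the first design and -1.11 ± 0.09 on the second. DAB2, an endocytic adaptor, read -1.12 ± 0.16 on the second. On the first design its 4 probes ran from -0.63 to 0.28, with 0 called. DAB2 also stands in the endoderm and trophectoderm lists below, and its negative call on the second design counts in each. The medians of the list were -0.02 and -0.28.

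Markers of cell types that the embryos hold moved as follows, and their part in the DPP4 ratio was not tested. Calls on the positive side came to 2.38% of all genes on the first design and to 5.27% on the second, and calls on the negative side to 2.38% and 5.72%. Of visceral and hypoblast endoderm markers, 6 of 18 were called positive on the first design and 0 negative, and 5 of 16 were positive and 2 negative on the second, FN1 among the positive. The positive ones included the apolipoprotein genes APOA1, at 2.32 and 1.54, and APOA2, at 1.51 and 1.71. The negative ones on the second design included DAB2, at -1.12, the lowest of the list there. The call of APOA2 on the second design held in 3 of the 6 fits without 1 array (adjusted p up to 0.0579). Of trophectoderm markers, 5 of 14 were positive on the first design, and 4 of 12 positive with 2 negative on the second. Of inner cell mass and epiblast markers, 1 of 10 was called on the first design, on the negative side, and on the second 2 of 8 were positive and 1 negative. LAMB1 of the endoderm list read 0.79 on the first design.

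Markers of cells that could come with flushed embryos were also counted. Over both sides, 4.75% of genes passed on the first design and 11.0% on the second (5.27% positive, 5.72% negative). Beside such shares, 0 calls in a list this short say little about whether these cells were present. Of oviduct and uterine epithelium genes, 0 of 16 were called by limma on the first design (2 at an unadjusted p under 0.05). On the second, 2 of 12 were called, both positive: UPTI, and the acid phosphatase gene ACP5 (uteroferrin in the pig) at 0.32 ± 0.06, whose call held in 2 of the 6 fits without 1 array (adjusted p up to 0.0689). UPTI read 0.60 ± 0.16 on the first design (adjusted p = 0.101). T cells carry DPP4, and of T cell and other leukocyte genes 0 of 16 were called by limma on the first design (0 at an unadjusted p under 0.05), with ratios from -0.24 to 0.10. On the second 1 of 14 was called, CD247, a chain of the T cell receptor complex, at -0.24 ± 0.06, and that call ended on leaving out any 1 array (adjusted p 0.0747 to 0.124). Cumulus and sperm genes gave 0 limma calls among 9 and among 10, with 0 at an unadjusted p under 0.05 on each design. Levels of these markers cannot be given from ratios, and their part in the DPP4 ratio was not tested.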

How the data were processed

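Both array designs (6 arrays each) were used as deposited: 1 log ratio per probe and array, taken as log2 because the second design holds values of -12.7 and 12.2. What the authors did to make these deposited log2 ratios (scanner, background, normalization, base, numerator) is not given in the sources used here. The number of arrays limits the precision.

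Probes were named from the platform annotation, updated through a RefSeq gene table of Sscrofa11.1 used for names only: 18121 of 43794 and 10290 of 45220 probes had 1 symbol, 0 had several, and 25673 and 34930 were unnamed. By accession, 2658 and 6055 matched. Probes of a symbol were averaged, which gave 11913 and 4531 genes.

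Each design was fitted alone with limma 3.58.1 (lmFit and eBayes) in R 4.3.3, with a stage and a dye term, over genes and over probes, 2-sided, with Benjamini-Hochberg adjustment over all of them and a threshold of 0.05. The fits were tested on simulated data with independent arrays, so the correlation of array pairs was not covered. A change of 0.5 was recovered in 22.6% (probes, second design) to 76.4% (genes, second design) of cases. False calls ran from 3.81% (genes, first design) to 6.28% (genes, second design). Probe pairs were compared with exact sign flips.

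The gene and its lists were chosen with earlier results of these data known. Genes named are DPP4, from each list the 4 members of lowest p at most, called members of its family, partners and substrates, the 5 nearest genes by each measure of likeness (not all are printed), and 3 neighbours in rank on either side. LOC symbols were passed over. Alternatives were the median of probes, single probes, centring, scaling, array weights, no dye term, single slides, residual pairs, each array left out, and the sign turned.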

Additional observations from a re-analysis of the deposited data

Results flagged for a closer look

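DPP4 probe 39077 of the first design differed between the dye orientations: its mean with hatched in Cy5 minus its mean with early in Cy5 was 0.950 (3 arrays each; limma adjusted p of the dye effect 0.0362), with every array of one orientation above 0 and every array of the other below. For NPPB on the first design the same difference was -0.243, with the orientations on opposite sides of 0 and a limma adjusted p of the dye effect of 0.214. CCR1 lay on the positive side on all arrays of the first design and on the negative side on all arrays of the second, a gap of 2.06, and that difference between the designs was not tested. DPP8 on the second design had 1 array apart from the others, at 0.255, with a gap to its neighbour that made up 0.640 of the range over 6 arrays. Chance marks about 5% of groups in this way.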

How the results depend on the processing

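The labels number no replicates and pair no arrays. The pairs of arrays used below were found from correlated residuals. The DPP4 mean on the first design kept its sign and its call on leaving out any 1 array (0.66 to 0.70), within slide 22, and without the 2 arrays of smallest spread, an alternative added after seeing the data. On the second design, where no test is given, the ratio ran from 2.99 to 3.18 on leaving out 1 array. The call of the 4-probe mean on the first design ended with the median of the probes (0.17, adjusted p = 0.202), with averages of the 3 pairs of arrays whose residuals correlate (0.68, 0.0752) and with the sign turned on the early in Cy5 arrays (0.12, 0.249). Single probes gave 0.10 (6060), 0.014 (20771) and -0.10 (39077), so the mean was carried by 27209. On pair averages probe 27209 had an adjusted p of 0.0682. With the sign turned, DPP4 on the second design stood at 0.10 with a dye part of 3.09, the dye part of the first-design mean became 0.68, and probe 39077 had a stage ratio of 0.48 and a dye part of -0.10. Probe 39077 alone had a dye part of 0.48. The number of genes called on the first design, 566, ran from 197 to 610 on leaving out 1 array (234 without array hatched-Cy5 1, 197 without early-Cy5 2, 229 without early-Cy5 3, 258 without hatched-Cy5 3). It was 243 within slide 22, 249 as the mean of slides, 0 by limma on pair averages (1271 at an unadjusted p under 0.05), 1166 without the arrays of smallest spread and 118 with the sign turned. On the second design 498 ran from 255 to 578 (255, 261, 284 and 289 without the same arrays). It was 210 within slide 20, 290 as the mean of slides, 4 on pair averages, 785 without the arrays of smallest spread and 0 by limma with the sign turned (648 at an unadjusted p under 0.05). Of 30 called results for other genes named, 9 lost the call on leaving out some array, 2 with the pairs as a random block, 2 without the arrays of smallest spread, and 0 changed sign. The counts of lost calls leave out the other alternatives, such as pair averages, single slides and the fit without the dye term. The sign turn was not run for these genes. On pair averages every call of the first design ended, and only 4 genes in all were called on the second. Slides 4 and 8 hold 2 arrays each and give values with no test.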
